A study of Mus musculus with 6 samples.

Results

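The nuclear genes of the mitochondrial respiratory chain and of ATP synthase were followed in mouse peritoneal macrophages, the phagocytes of the abdominal cavity, after exposure to ligands of 2 Toll-like receptors. The genes were chosen by symbol: names that begin with Nduf, Uqcr, Atp5 or Cox followed by a digit, together with Sdha, Sdhb, Sdhc and Sdhd. Among array probes that carry 1 gene symbol this rule found 97 of the 19935 genes measured. They were sorted by textbook role into 34 subunits of complex I, 4 of complex II, 8 of complex III, 10 of complex IV and 17 of complex V, 15 assembly factors, and 9 isoforms or paralogues of complex IV subunits. Ndufa4, which carries a complex I name, was placed in complex IV, where the protein is now known to reside.

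All cells came from the inbred strain C57BL/6 and were cultured in DMEM with 10% FBS. Control cells were left untreated, and the labels give no culture time for them. The second group received poly I:C, an artificial double-stranded RNA recognised by TLR3, at 2 ug/mL for 24 h. The third received 1 ug/mL PAM, a synthetic lipopeptide recognised by TLR2, for 24 h; the 2 samples of that group name the compound differently (PAMCSK3 and PAMCSK4). Each group held 2 arrays, and nothing in the labels says whether these were independent animals or cultures. The p-values below therefore reflect the spread of 2 arrays a group, which could be purely technical.

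The respiratory chain passes electrons from NADH (through complex I) or succinate (through complex II) by way of ubiquinone to complex III, then by way of cytochrome c to complex IV, which reduces oxygen. Complexes I, III and IV pump protons across the inner mitochondrial membrane, and complex V, the ATP synthase, lets them flow back to make ATP. Most subunits are encoded in the nucleus and a few in mitochondrial DNA, and assembly factors insert cofactors and join the parts without staying in the finished enzyme. Macrophages are known to change their use of this chain when Toll-like receptors are engaged, and complex II, which also belongs to the citric acid cycle, has a part in that response.

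Promoters of respiratory genes are a classic setting for the transcription factors NRF1 and GABP, so the letters of their binding motifs were searched in the promoter windows of the genes (RefSeq, build GRCm38.p6, 250 bases before to 50 bases after a start site, both strands). Windows were matched for 79 of the 97 genes, 84 windows in all. The stretches printed here lie before the start site and were picked after the values were seen. The NRF1 letters GCGCATGCG, which overlap their own reverse complement, are in capitals in 4 of them, shown to set genes that were lower with poly I:C beside subunit genes that did not pass. Atp5g2 (chr15:102671048-102671139, minus strand) and Atp5k (chr5:108434400-108434499, minus strand) code for ATP synthase subunits that were lower with poly I:C. Cox6a1 (chr5:115349061-115349170, minus strand) and Ndufa11 (chr17:56717652-56717761, plus strand) did not pass.
Atp5g2: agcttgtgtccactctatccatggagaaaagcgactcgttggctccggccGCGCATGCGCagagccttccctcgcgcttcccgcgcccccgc
Atp5k: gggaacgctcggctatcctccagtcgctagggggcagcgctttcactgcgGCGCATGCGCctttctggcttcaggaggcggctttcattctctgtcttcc
Cox6a1: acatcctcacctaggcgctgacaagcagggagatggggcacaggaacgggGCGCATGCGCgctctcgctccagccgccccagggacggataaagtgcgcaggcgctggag
Ndufa11: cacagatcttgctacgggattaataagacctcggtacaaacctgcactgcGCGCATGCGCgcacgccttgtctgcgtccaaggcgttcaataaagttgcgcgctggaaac

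The GABP letters CCGGAAGT, or their reverse complement, are in capitals in the promoters of Uqcr11 (chr10:80406830-80406937, minus strand) and Uqcrh (chr4:116075071-116075131, minus strand), small complex III subunits that were both lower with poly I:C. The letters were also in the window of Atp5h, a complex V subunit that was lower. Cox8a, a complex IV subunit, and Cox10, an assembly factor, held them and did not pass. Cox14, Cox15 and Ndufs3 held them and were higher.
Uqcr11: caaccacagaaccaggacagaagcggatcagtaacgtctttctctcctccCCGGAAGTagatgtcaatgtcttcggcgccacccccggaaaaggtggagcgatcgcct
Uqcrh: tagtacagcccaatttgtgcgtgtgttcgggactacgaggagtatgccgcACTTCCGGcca

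Across all windows of the 97 genes, 11.9% held the NRF1 letters, against 1.75% of all 32851 promoter windows and 4.07% of the windows of other genes with a high signal. For the GABP letters the shares were 9.52%, 3.89% and 9.92%, and for the YY1 letters AAGATGGCG they were 9.52%, 1.4% and 3.63%. The interferon-stimulated response element was searched as GAAANNGAA. It was in 9.52% of the genes' windows, in 8.56% of all windows and in 7.18% of the windows of other genes with a high signal. Subunits lower with poly I:C held the NRF1 letters in 3 of 26 windows, and subunits that did not pass in 5 of 39. The GABP letters were in 3 of the 26 and in 1 of the 39, in 3 of the 6 windows of genes higher with poly I:C, and in 3 of the 12 windows of assembly factors. These are matches of letters, not binding sites, and no share was tested.

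The deposited values are on a log scale, taken as log2, with the median over the 6 arrays subtracted from each probe. A value therefore tells how far an array lies from the middle array for that gene and holds no level, so genes can be compared only by their differences between groups. The rounding of the deposited numbers still reveals the probes whose values were at least 8 on every array before subtraction, a high signal class that held 5973 of all genes (30%) and 27 of 1027 olfactory receptor genes. It held 68 of the 73 subunits, all 17 of complex V among them, 8 of the 15 assembly factors and 1 of the 9 isoforms and paralogues (Cox7a2l). Of 12 macrophage markers 10 were in this class (not Gata6 and Timd4). So were 1 of 9 B cell markers (Cd22), 1 of 10 T and NK cell markers (Cd8a), 1 of 10 neutrophil markers (Csf3r), 4 of 8 mesothelial and fibroblast markers (Col1a1, Col3a1, Dcn, Pdgfra), and none of the mast cell, dendritic cell, or erythroid and platelet markers. Precision is limited by having 6 arrays, and over all genes a difference between groups had a median standard error of 0.0749 on the log2 scale.

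Many of the 73 subunits were modestly lower with poly I:C than in control cells. A gene was counted as lower or higher where limma's adjusted p, computed over all 19935 genes, was under 0.05. Of the 73 subunits 32 were lower (43.8%) and 2 were higher (2.74%), with a median difference of -0.17 from control on the log2 scale. Among all genes 18.2% were lower and 12.1% higher, with a median of 0.01; among genes of high signal 33.2% were lower and 21.6% higher, with a median of -0.06. The 68 subunits of high signal gave 44.1% lower and 2.94% higher. The share of lower subunits was thus above both backgrounds and the share of higher subunits below both, and no test was made over the list. By complex, the lower share was 38.2% in complex I, 25% in II, 37.5% in III, 50% in IV and 58.8% in V. The shares of complexes I and III are near that of genes of high signal, and that of complex II lies between the backgrounds. The complex III median was -0.03, beside -0.06 for genes of high signal. In bulk RNA, less of a transcript per cell and fewer cells that hold it cannot be told apart. Leaving out arrays moved the count of lower subunits: it was 14 without poly I:C array 2, 21 without poly I:C array 1 and 22 without control array 2.

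**Figure D1:**
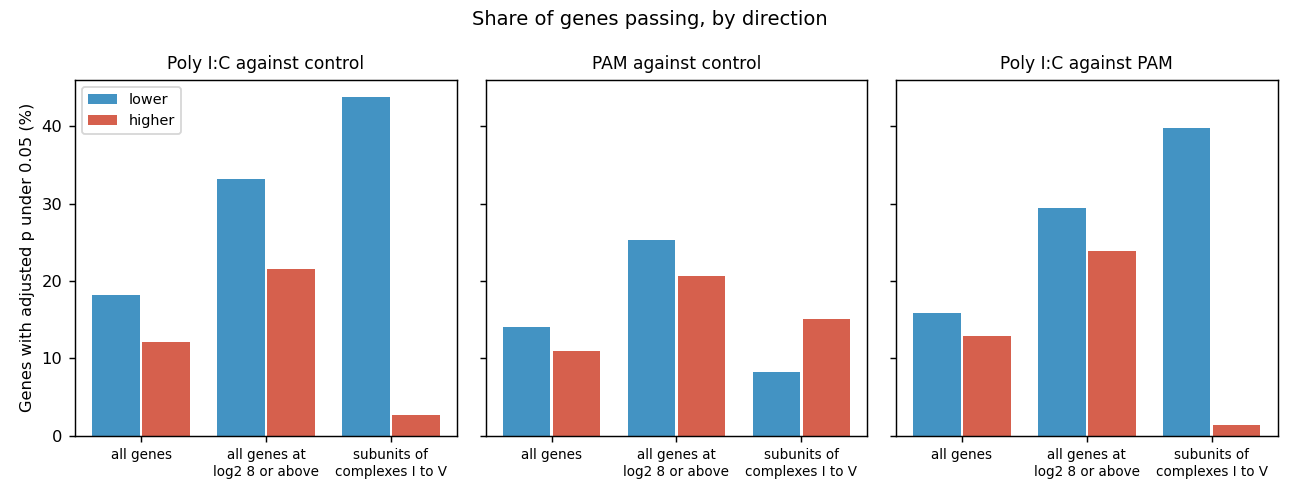
Share of genes that passed, in percent, for all genes, genes of high signal (log2 of 8 or above on all arrays) and the 73 subunits, in each comparison; blue bars are genes lower and red bars genes higher in the group named first. Subunits lower with poly I:C stand at 43.8% against control and 39.7% against PAM, and with PAM they stand at 8.22% lower and 15.1% higher.

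**Figure D2:**
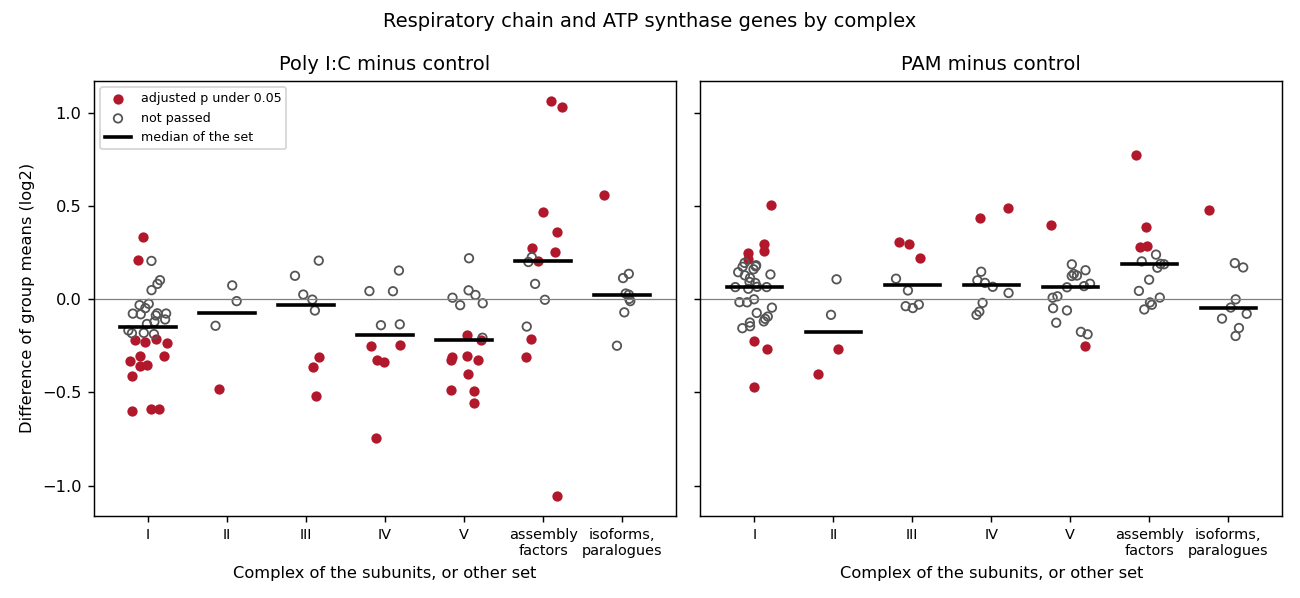
Log2 difference of each gene from control with poly I:C (left) and PAM (right), 1 point a gene, filled red where the adjusted p was under 0.05, with a bar at the median of each set. With poly I:C the medians run from -0.03 in complex III to -0.22 in complex V and stand at 0.20 in the assembly factors; with PAM that of complex II is at -0.18 and the other complexes lie between 0.06 and 0.08.

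In complex I, 13 of 34 subunits were lower with poly I:C and 2 were higher, and the median difference was -0.15. Ndufs1, an iron-sulfur core subunit of the NADH dehydrogenase module, stood at 0.12 and 0.19 on the control arrays, at -0.40 and -0.49 with poly I:C, and at -0.06 and 0.06 with PAM. The poly I:C arrays lay below all the others, a difference from control of -0.60 ± 0.07 (SE, 2 arrays against 2, adjusted p = 0.000213), or 1.52-fold. Ndufv1, which binds NADH and FMN in the same module, was at -0.05 and 0.05 in control cells, at -0.36 and -0.47 with poly I:C, and at 0.15 and 0.20 with PAM. Its 3 groups did not overlap, and the poly I:C difference was -0.41 ± 0.07 (adjusted p = 0.002). Ndufs8, a core subunit that carries iron-sulfur clusters near the ubiquinone site, gave 0.42 and 0.49 in control cells, -0.03 and -0.23 with poly I:C, and 0.03 and -0.06 with PAM. Here the control arrays were the high ones, and both ligands lay below them, by -0.59 ± 0.08 for poly I:C (adjusted p = 0.000581) and by -0.47 ± 0.08 for PAM (adjusted p = 0.00267).

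Of the other core subunits of complex I, Ndufv2 was lower with poly I:C (-0.23, adjusted p = 0.0258), Ndufs7 did not pass (0.10, adjusted p = 0.335) and Ndufs3, a core subunit of the ubiquinone module, was higher. Ndufs3 was at 0.21 and 0.17 with poly I:C, against -0.04 and -0.00 in control cells and 0.00 and -0.05 with PAM. Its difference of 0.21 (adjusted p = 0.0352) was close to the threshold and did not pass without any 1 of the 6 arrays (0.19 to 0.23). Ndufv2 did not pass without either control array (-0.23 each), without poly I:C array 1 (-0.24) or 2 (-0.22), or after quantile normalization (-0.20). Core and accessory subunits were both represented among the lower genes, 4 of 6 core (66.7%) and 9 of 28 accessory (32.1%). By place in the enzyme, 5 of 15 matrix-arm subunits (33.3%) and 8 of 19 membrane-arm subunits (42.1%) were lower. Beside 18.2% of all genes and 33.2% of genes of high signal, the accessory and matrix-arm shares are near the latter. The 2 higher subunits belonged to the matrix arm (13.3%, against 12.1% of all genes and 21.6% of genes of high signal). No share was tested. The count of 13 became 6 without poly I:C array 2 or without control array 2, 7 without poly I:C array 1 and 8 after quantile normalization.

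Among the accessory subunits of complex I, Ndufb11 and Ndufb6 were lower with poly I:C and Ndufs4 was higher. Ndufb11, a membrane-arm subunit, was at 0.23 and 0.30 in control cells, -0.24 and -0.41 with poly I:C, and 0.04 and -0.04 with PAM. The groups descended from control through PAM to poly I:C without overlap, with differences from control of -0.59 ± 0.08 for poly I:C (adjusted p = 0.00037) and -0.27 ± 0.08 for PAM (adjusted p = 0.0355). Ndufb6, another membrane-arm subunit, was at -0.05 and 0.05 in control cells, -0.36 on both poly I:C arrays, and 0.27 and 0.32 with PAM. It was lower with poly I:C (-0.36 ± 0.07, adjusted p = 0.0028) and higher with PAM (0.29 ± 0.07, adjusted p = 0.0107). Ndufs4, a matrix-arm subunit needed for a stable NADH dehydrogenase module, went the other way: it was at -0.32 and -0.18 in control cells, 0.09 and 0.07 with poly I:C, and -0.01 and 0.01 with PAM. Its control arrays were the low ones, and the difference was 0.33 ± 0.07 with poly I:C (adjusted p = 0.00587) and 0.25 ± 0.07 with PAM (adjusted p = 0.0294). The PAM call of Ndufb11 did not hold without control array 2 (-0.23), PAM array 1 (-0.30) or PAM array 2 (-0.23), and that of Ndufb6 did not hold without PAM array 2 (0.27). That of Ndufs4 ended without control array 1 (0.18), PAM array 1 (0.26) or 2 (0.24), or either poly I:C array (0.25 each).

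Complex II, succinate dehydrogenase, gave 1 lower subunit of 4 with poly I:C and 2 with PAM, with medians of -0.08 and -0.18. Sdhc, a membrane anchor, was at 0.33 and 0.46 in control cells, -0.02 and -0.14 with poly I:C, and -0.03 and 0.02 with PAM. Both ligand groups lay below the control arrays and overlapped each other, with differences of -0.48 ± 0.08 (adjusted p = 0.00111) and -0.40 ± 0.08 (adjusted p = 0.00396). Sdha, the flavoprotein that oxidises succinate, was at 0.13 and 0.15 in control cells, 0.02 and -0.02 with poly I:C, and -0.19 and -0.06 with PAM. It passed with PAM (-0.27 ± 0.07, adjusted p = 0.022) and not with poly I:C (-0.14, adjusted p = 0.179), and the PAM call ended without control array 2 (-0.26) or PAM array 1 (-0.20). Sdhb, the iron-sulfur subunit, and Sdhd, the other anchor, did not pass with either ligand: the differences were 0.07 and 0.11 for Sdhb and -0.01 and -0.08 for Sdhd. Between the 2 ligands none of the 4 genes passed in limma's test (0 at an unadjusted p under 0.05), and differences ran from -0.08 to 0.12.

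Complex III gave 3 lower subunits of 8 with poly I:C and none higher, with a median of -0.03. Uqcr11, a very small subunit that is among the last to join the enzyme, lay outside the high signal class. It was at 0.01 and 0.15 in control cells, -0.48 and -0.40 with poly I:C, and 0.10 and -0.01 with PAM. Control and PAM arrays overlapped and the poly I:C arrays lay below both, with a difference from control of -0.52 ± 0.08 (adjusted p = 0.000767), or 1.43-fold. Uqcrfs1, the Rieske iron-sulfur protein that takes electrons from ubiquinol, was at -0.03 and 0.03 in control cells, -0.21 and -0.42 with poly I:C, and 0.14 and 0.08 with PAM. Its difference with poly I:C was -0.31 ± 0.08 (adjusted p = 0.0181). Uqcrh, the hinge protein that helps cytochrome c dock, was lower as well (-0.36 ± 0.08, adjusted p = 0.00732). The 2 large core proteins did not pass with poly I:C: Uqcrc1 differed by -0.06 and Uqcrc2 by 0.12. The call of Uqcrfs1 ended without control array 2 (-0.28) or poly I:C array 2 (-0.21), and that of Uqcrh without poly I:C array 1 (-0.31).

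In complex IV, cytochrome c oxidase, 5 of 10 nuclear subunits were lower with poly I:C and none higher, with a median of -0.19. Ndufa4 was at 0.01 and 0.17 in control cells, -0.55 and -0.76 with poly I:C, and -0.01 and 0.02 with PAM. The difference of -0.74 ± 0.09 (adjusted p = 0.000181), or 1.67-fold, was the largest decrease among the 73 subunits. Cox6b1, Cox7b, Cox4i1 and Cox6c, structural subunits around the catalytic core, fell by 0.33, 0.33, 0.25 and 0.25. Cox5a, Cox5b, Cox6a1, Cox7a2 and Cox8a did not pass, with differences from -0.14 to 0.15. The count of 5 was 1 without poly I:C array 2 and 3 without poly I:C array 1. Without poly I:C array 2 Cox6b1 (-0.295), Cox7b (-0.27), Cox6c (-0.24) and Cox4i1 (-0.21) no longer passed. Cox6c was also lost without poly I:C array 1 (-0.26), and Cox4i1 was also lost without control array 1 (-0.23), without poly I:C array 1 (-0.28) and after quantile normalization (-0.21).

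Complex V, the ATP synthase, held the largest share of lower subunits with poly I:C, 10 of 17, with none higher and a median of -0.22; the shares of the complexes were not tested against each other. The membrane ring that turns as protons pass is built of subunit c, encoded by Atp5g1, Atp5g2 and Atp5g3, whose mature proteins are the same, and all 3 genes were lower. Atp5g1 was at -0.09 and 0.09 in control cells, -0.46 and -0.66 with poly I:C, and 0.14 and 0.11 with PAM. The poly I:C arrays lay below the rest, by -0.56 ± 0.09 from control (adjusted p = 0.00117), or 1.47-fold. Atp5g2 was at 0.18 and 0.32 in control cells, -0.19 and -0.29 with poly I:C, and 0.01 and -0.01 with PAM. Its 3 groups did not overlap, and the differences were -0.49 ± 0.07 with poly I:C (adjusted p = 0.000818) and -0.25 ± 0.07 with PAM (adjusted p = 0.0368). Atp5g3 was at 0.00 and -0.00 in control cells, -0.22 and -0.39 with poly I:C, and 0.01 and 0.00 with PAM. Its difference with poly I:C was -0.31 ± 0.07 (adjusted p = 0.0111).

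Among the 5 subunits of the catalytic F1 head, 3 were lower with poly I:C: Atp5a1 (alpha, -0.20), Atp5d (delta, -0.31) and Atp5e (epsilon, -0.32). Atp5b, the catalytic beta subunit, and Atp5c1, the gamma shaft, did not pass, with differences of -0.03 and 0.05. Atp5k, subunit e of the membrane part, was at 0.18 and 0.20 in control cells, -0.22 and -0.38 with poly I:C, and 0.02 and -0.02 with PAM. Control arrays were highest and poly I:C arrays lowest, a difference of -0.49 ± 0.07 (adjusted p = 0.000783). The parts of the peripheral stalk were divided: Atp5h (subunit d) fell by 0.22, whereas Atp5o, Atp5pb and Atp5j did not pass, with differences of -0.02, 0.02 and 0.01. The count of 10 was 4 without poly I:C array 2. Without that array Atp5g3 (-0.22), Atp5d (-0.24) and Atp5e (-0.29) did not pass. Atp5h was lost without control array 2 (-0.195), either poly I:C array (-0.19 and -0.26) or either PAM array (-0.22 each), and after quantile normalization (-0.18). Atp5a1, close to the threshold at an adjusted p of 0.0454, did not pass without any 1 of the 6 arrays (-0.21 to -0.18) nor after quantile normalization (-0.17). The PAM call of Atp5g2 ended without control array 2 (-0.18), either poly I:C array (-0.25 each), PAM array 1 (-0.26) or PAM array 2 (-0.25), and after quantile normalization (-0.21).

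**Figure D3:**
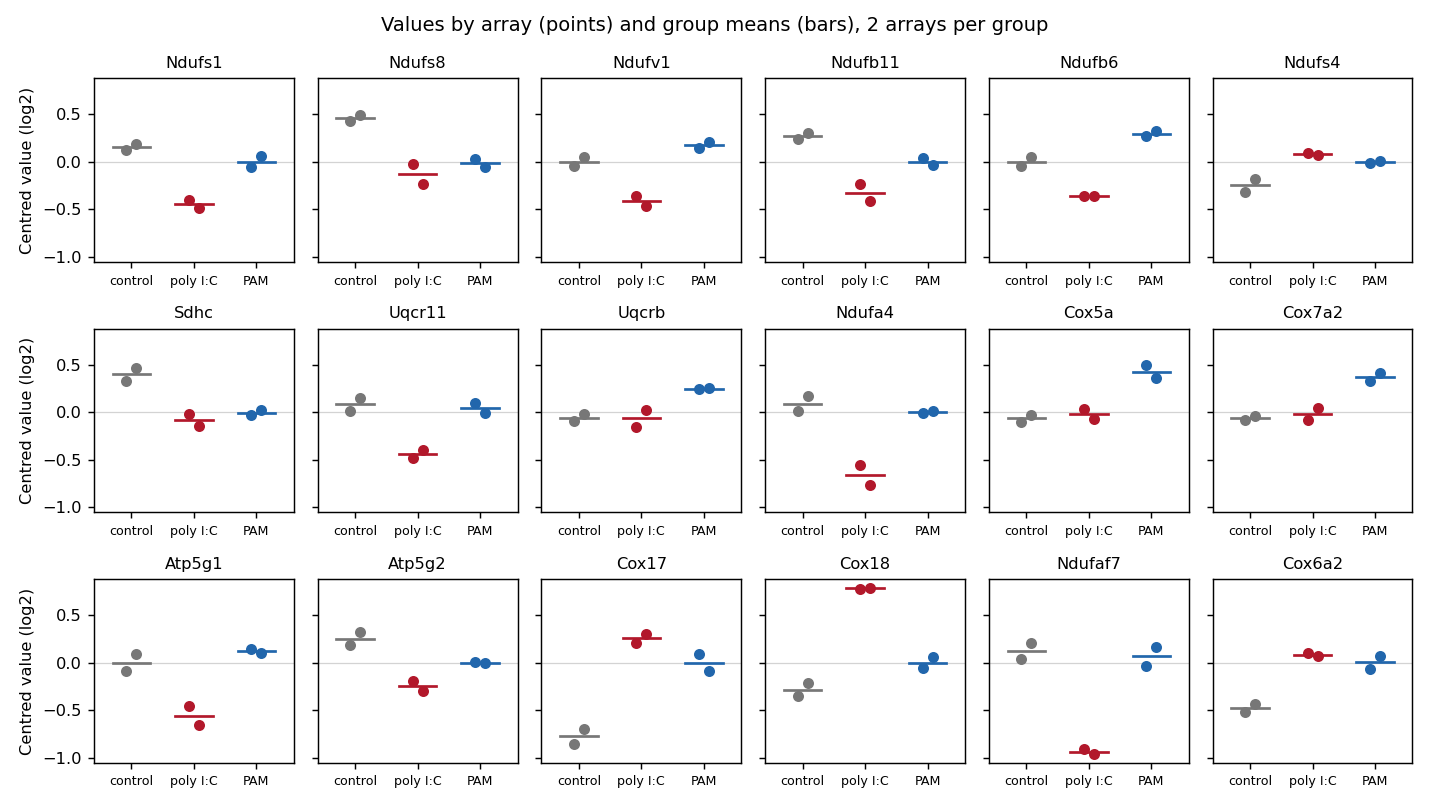
Centred log2 value on each array (points) and group mean (bars) for 18 genes, in control (grey), poly I:C (red) and PAM (blue) cells, 2 arrays a group. Poly I:C arrays are lowest for Ndufs1, Uqcr11, Ndufa4, Atp5g1 and Ndufaf7, PAM arrays are highest for Cox5a and Cox7a2, and control arrays are lowest for Cox17, Cox18 and Cox6a2.

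Among the assembly factors more genes were higher than lower with poly I:C. Of the 15, 7 were higher (46.7%) and 3 lower (20%), with a median of 0.20. Among all genes 12.1% were higher and 18.2% lower, and among genes of high signal 21.6% and 33.2%. No share was tested. The 3 lower factors (Ndufaf2, Ndufaf5 and Ndufaf7) lay outside the high signal class. With only genes of that class in the fit, 8 factors remained, 7 higher and 0 lower. The 8 factors of complex IV had 4 higher and none lower, and the 7 of complex I had 3 higher and 3 lower. Cox17, the chaperone that brings copper to complex IV, was at -0.86 and -0.69 in control cells, 0.21 and 0.30 with poly I:C, and 0.09 and -0.09 with PAM. Both ligand groups lay far above the control arrays, by 1.03 ± 0.09 with poly I:C (adjusted p = 2.16e-05), or 2.04-fold, and by 0.77 ± 0.09 with PAM (adjusted p = 0.000162). Cox18, an insertase for the mitochondrially encoded subunit that binds that copper, was at -0.35 and -0.22 in control cells, 0.77 and 0.79 with poly I:C, and -0.05 and 0.05 with PAM. The groups rose from control through PAM to poly I:C without overlap, with differences of 1.06 ± 0.07 for poly I:C (adjusted p = 6.21e-06), or 2.09-fold, and 0.29 ± 0.07 for PAM (adjusted p = 0.0211). Cox14, a factor for the core subunit Cox1, and Cox15, which makes heme A, were higher with poly I:C by 0.47 (adjusted p = 0.00251) and 0.36 (adjusted p = 0.00888). Cox10, Cox11, Cox19 and Cox20 did not pass, at 0.20, 0.08, 0.22 and -0.0037. The poly I:C call of Cox15 ended without poly I:C array 2 (0.34), and the PAM call of Cox18 without control array 1 (0.22) or PAM array 2 (0.23).

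Ndufaf7, a methyltransferase that modifies a core subunit during complex I assembly, had the largest decrease of all 97 genes. It was at 0.04 and 0.20 in control cells, -0.91 and -0.96 with poly I:C, and -0.04 and 0.17 with PAM. Control and PAM arrays overlapped and the poly I:C arrays lay far below, by -1.06 ± 0.09 (adjusted p = 2.18e-05), or 2.08-fold. Ndufaf2 (-0.31) and Ndufaf5 (-0.22), which act on the NADH module and on a core subunit, were also lower with poly I:C, whereas Ndufaf1 (0.25), Ndufaf3 (0.20) and Ndufaf6 (0.27) were higher. With PAM 4 assembly factors were higher (26.7%) and none lower, with a median of 0.19. Among all genes 11% were higher and 14% lower, and among genes of high signal 20.6% and 25.3%. Beside Cox17 and Cox18 the higher factors were Ndufaf3 (0.38, adjusted p = 0.00189) and Ndufaf4 (0.28, adjusted p = 0.0431), partners in early complex I assembly. Ndufaf2 did not pass with poly I:C without control array 2 (-0.22), without poly I:C array 2 (-0.27) or after quantile normalization (-0.22). Ndufaf5 did not pass without control array 1 (-0.21), control array 2 (-0.23), poly I:C array 2 (-0.16) or either PAM array (-0.22 each), nor after quantile normalization (-0.18). Among the higher factors, Ndufaf1 did not pass without control array 1 (0.20) or either poly I:C array (0.30 and 0.21), and Ndufaf3 (0.17 to 0.23) did not pass without any 1 of the 6 arrays. Ndufaf6 did not pass without either control array (0.29 and 0.26) or either poly I:C array (0.33 and 0.22). With PAM Ndufaf4 did not pass without control array 1 (0.16), PAM array 1 (0.32) or 2 (0.24), or either poly I:C array (0.28 each). The 7 higher factors were 4 without control array 1 or poly I:C array 1 and 3 without poly I:C array 2, the 3 lower ones were 1 without control array 2 or poly I:C array 2 and after quantile normalization, and the 4 higher with PAM were 2 without control array 1 or PAM array 2.

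The isoforms that replace a common complex IV subunit in muscle, lung or testis were nearly all outside the high signal class. Of the 9 isoforms and paralogues only Cox6a2, the heart and muscle form of Cox6a1, passed against control. Cox6a2 was at -0.51 and -0.44 in control cells, 0.10 and 0.07 with poly I:C, and -0.07 and 0.07 with PAM. Both ligand groups lay above the control arrays, by 0.56 ± 0.07 (adjusted p = 0.000341) and 0.48 ± 0.07 (adjusted p = 0.00114). Its signal was not shown to reach 8, whereas Cox6a1, the common form, was in the high signal class and did not pass with either ligand (-0.14 and 0.10). Cox4i2, an isoform used in lung and under low oxygen, differed by -0.01 with poly I:C and -0.08 with PAM, beside -0.25 and -0.07 for Cox4i1. Ndufa4l2, a paralogue of Ndufa4, differed by 0.11 and 0.17. Without control array 1 it passed with both ligands, at 0.27 and 0.33. Cox7a1, the muscle form of Cox7a2, did not pass (-0.25 and -0.16), although it did with poly I:C without either PAM array (-0.25 each). Cox7a2l, a paralogue of Cox7a2, gave -0.07 with poly I:C and -0.20 with PAM (adjusted p = 0.0518). After quantile normalization it passed with PAM (-0.20).

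With PAM 56 of the 73 subunits did not pass. In the remainder 6 were lower (8.22%) and 11 higher (15.1%), with a median of 0.06. Among all genes 14% were lower and 11% higher, and among genes of high signal 25.3% were lower and 20.6% higher. The share of lower subunits was below both backgrounds, and the share of higher ones lay between them. The 2 ligand comparisons share their control arrays. Without PAM array 1, PAM array 2 or control array 1 the count of higher subunits was 4, and it was 7 without either poly I:C array. The 6 lower subunits were 2 without control array 2 or PAM array 1, 3 without PAM array 2 and 4 without either poly I:C array.

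Ndufb3, a membrane-arm subunit of complex I outside the high signal class, showed the largest increase of any subunit with PAM. It was at -0.02 and 0.02 in control cells, -0.17 and -0.16 with poly I:C, and 0.50 and 0.51 with PAM, a difference from control of 0.50 ± 0.06 (adjusted p = 0.000321), or 1.42-fold. Cox5a, a subunit that binds a thyroid hormone metabolite on the matrix side of complex IV, was at -0.10 and -0.03 in control cells, 0.03 and -0.07 with poly I:C, and 0.49 and 0.36 with PAM. The PAM arrays lay above the other 4, by 0.49 ± 0.08 from control (adjusted p = 0.00123). Cox7a2 was at -0.09 and -0.04 in control cells, -0.08 and 0.04 with poly I:C, and 0.33 and 0.41 with PAM, and its difference was 0.43 ± 0.07 (adjusted p = 0.00176). In all 3 genes the PAM arrays stood above the other 4 arrays.

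Smaller increases with PAM were found in complex III and complex V. Uqcrb, which helps to form the ubiquinone site, was higher by 0.31 (adjusted p = 0.0167), Uqcrq by 0.30 (adjusted p = 0.0366) and Uqcrc2 by 0.22 (adjusted p = 0.0349). Atp5md, a small subunit of the ATP synthase dimer, was higher by 0.40 ± 0.10 (adjusted p = 0.0201), and Ndufb9 of complex I by 0.26 (adjusted p = 0.0296). Lower with PAM, beside Ndufs8, Ndufb11, Sdhc, Sdha and Atp5g2, was Ndufa13 (-0.23, adjusted p = 0.0348). The calls of Uqcrb, Uqcrq, Uqcrc2, Atp5md, Ndufb9 and Ndufa13 were each lost when some arrays were left out. Uqcrc2 (0.20 to 0.24) and Ndufa13 (-0.27 to -0.19) did not pass without any 1 of the 6 arrays, and Ndufa13 also not after quantile normalization (-0.21). Uqcrq did not pass without control array 1 (0.22), PAM array 1 (0.19) or either poly I:C array (0.30 each). Without control array 1, PAM array 1 or PAM array 2, Uqcrb (0.27, 0.31 and 0.31), Atp5md (0.26, 0.39 and 0.40) and Ndufb9 (0.22, 0.27 and 0.25) did not pass.

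Compared directly, 29 of the 73 subunits were lower in poly I:C cells than in PAM cells (39.7%), 1 was higher (1.37%) and 43 did not pass, with a median difference of -0.19, and 64 of the 73 values below 0. Among all genes 15.8% were lower and 12.9% higher; among genes of high signal 29.4% were lower and 23.9% higher, and the 68 subunits of that class gave 38.2% and 1.47%. By complex, 11 of 34 subunits were lower in complex I, none of 4 in complex II, 4 of 8 in complex III, 6 of 10 in complex IV and 8 of 17 in complex V. In complex V all 17 differences were below 0. The differences of this comparison use no control array, but the spread behind the adjusted p was estimated from all 6 arrays. The poly I:C arrays are those of the comparison with control. With only the 4 poly I:C and PAM arrays in the fit, 34 subunits were lower, 15 of them in complex I. The count of 11 in complex I was 6 without poly I:C array 2 and 7 without PAM array 1, the count of 4 in complex III was 2 without poly I:C array 1 or either PAM array, and that of 8 in complex V was 5 without poly I:C array 2 or either PAM array.

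Among the 73 subunits the widest gaps between the ligands were those of Atp5g1, Ndufb3, Ndufa4 and Ndufb6. Atp5g1 differed by -0.68 ± 0.09 (adjusted p = 0.000355), Ndufb3 by -0.67 ± 0.06 (adjusted p = 3.99e-05) and Ndufb6 by -0.65 ± 0.07 (adjusted p = 7.02e-05). The group values given for them above do not overlap. Ndufa4 differed by -0.66 ± 0.09, Ndufv1 by -0.59 ± 0.07, Uqcr11 by -0.48 ± 0.08, Cox5a by -0.45 ± 0.08 and Uqcrfs1 by -0.42 ± 0.08, all past the threshold. The only subunit that stood higher in poly I:C cells than in PAM cells was Ndufs3 (0.21, adjusted p = 0.0358), which did not pass without poly I:C array 1 (0.19) or 2 (0.24) or without PAM array 1 (0.24) or 2 (0.19). The 7 complex I assembly factors had 4 lower and none higher in poly I:C cells (Ndufaf7 -0.9996, Ndufaf2 -0.55, Ndufaf4 -0.43, Ndufaf5 -0.38), and the 8 of complex IV had 3 higher and none lower (Cox18 0.78, Cox15 0.38, Cox14 0.28). All 4 of those complex I factors lay outside the high signal class. They are 57.1% of the complex I factors, and the 3 higher ones are 37.5% of the complex IV factors. Among all genes 15.8% were lower and 12.9% higher, and among genes of high signal 29.4% and 23.9%. No share was tested. With only genes of high signal in the fit, 8 of the 15 assembly factors remained, 1 lower and 6 higher in poly I:C cells, against 4 lower and 3 higher with all genes. Cox15 did not pass without poly I:C array 2 (0.36), and Cox14 did not pass without that array (0.18), without PAM array 1 (0.22) or 2 (0.33), or after quantile normalization (0.27).

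**Figure D4:**
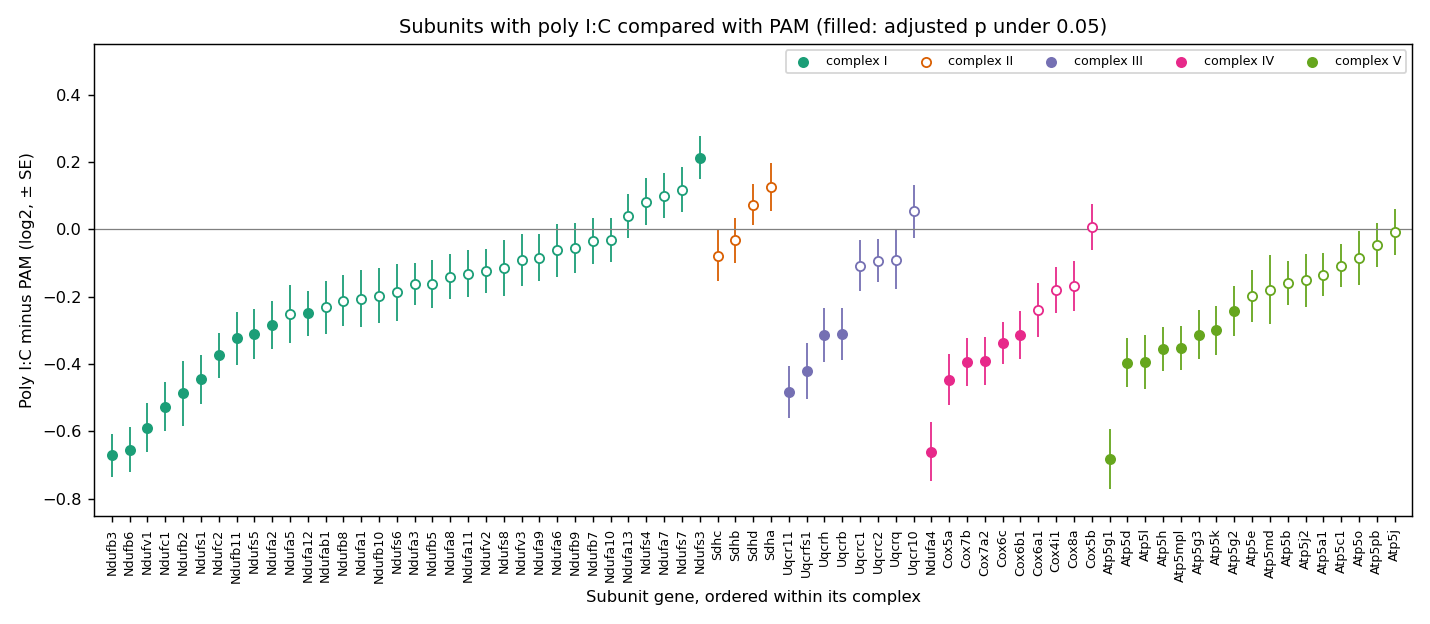
Log2 difference between poly I:C and PAM cells for each of the 73 subunits, coloured by complex and ordered within it, with the standard error of the limma fit; filled points had an adjusted p under 0.05. Most points lie below 0 (64 of 73), the 4 complex II genes lie near it, and the lowest are Atp5g1, Ndufb3, Ndufa4 and Ndufb6.

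Subunits encoded in mitochondrial DNA were represented by 2 transcripts, listed on the array as COX2 and ND3 and matched by gene identifier to mt-Co2 (complex IV) and mt-Nd3 (complex I). ND3 was at -0.0073 and 0.24 in control cells, -1.55 and -1.49 with poly I:C, and 0.05 and 0.01 with PAM. The poly I:C arrays lay far below the others, by -1.63 ± 0.09 from control (adjusted p = 9.9e-07), or 3.1-fold. COX2 was at -0.05 and 0.05 in control cells, -0.61 and -0.33 with poly I:C, and 0.06 and 0.08 with PAM, a difference from control of -0.47 ± 0.09 (adjusted p = 0.0041). Neither passed with PAM (-0.09 and 0.07), and both were lower in poly I:C cells than in PAM cells (-1.55 and -0.54). The other 13 mitochondrially encoded genes listed were not analysed here.

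Assembly genes with other names moved in both directions. Of 38 measured, 9 were lower (23.7%) and 9 higher (23.7%) with poly I:C, and 2 were lower (5.26%) and 5 higher (13.2%) with PAM. With poly I:C these shares stand between or near those of all genes (18.2% and 12.1%) and of genes of high signal (33.2% and 21.6%). Nothing particular to the list was read from them. With PAM 14% of all genes were lower and 11% higher, and 25.3% and 20.6% of genes of high signal. The lower share of the list with PAM was below both backgrounds and the higher share between them, and no share was tested. Higher with poly I:C were Coa5 (1.28) and Sco1 (1.10), which like Cox17 and Cox18 serve complex IV, and Foxred1 (0.83), a complex I factor. Lower were Atpaf1 (-0.81), which assembles the F1 head, Higd2a (-0.75), which acts on complex IV and supercomplexes, and Lrpprc (-0.48), which stabilises mitochondrial messenger RNA. With PAM Ttc19, a complex III factor, was higher (0.45) and Tmem126b, a complex I factor, lower (-0.50).

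The carriers between the complexes, ubiquinone and cytochrome c, and the enzymes that feed ubiquinone gave 7 lower and 4 higher genes of 22 with poly I:C, and 3 lower and 6 higher with PAM. With poly I:C that is 31.8% lower and 18.2% higher, between the shares of all genes and of genes of high signal. With PAM it is 13.6% lower and 27.3% higher. The shares with PAM are 14% and 11% of all genes and 25.3% and 20.6% of genes of high signal. Cycs, cytochrome c itself, was higher with both ligands, by 0.78 ± 0.07 (adjusted p = 3.1e-05) and 0.43 ± 0.07 (adjusted p = 0.0017). With poly I:C Coq8a, a kinase-like protein of ubiquinone synthesis, was higher (0.93) and Coq3, a methyltransferase of that pathway, lower (-0.68), as was Etfb, which passes electrons from fatty acid oxidation (-0.91). With PAM Gpd2, the mitochondrial glycerol phosphate dehydrogenase that feeds ubiquinone directly, was higher by 1.98 ± 0.06 (adjusted p = 5.9e-08) and Sqor, which oxidises sulfide, by 0.94. Gpd2 did not pass with poly I:C (0.07).

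Regulators of mitochondrial gene expression gave 4 lower and 4 higher genes of 21 with poly I:C (19% each) and 2 lower (9.52%) and 4 higher (19%) with PAM. The poly I:C shares lie near or between those backgrounds too, and nothing particular to the list was read from them. With PAM the lower share was below those of all genes (14%) and of genes of high signal (25.3%). The higher share with PAM lay between theirs (11% and 20.6%), and no share was tested. Nrf1, whose motif is printed above, did not pass with either ligand (0.05 and -0.04), and Yy1 did not pass (0.06 and -0.11). Gabpa, the DNA-binding part of GABP, was lower with poly I:C (-0.36, adjusted p = 0.013); without control array 2 (-0.25) or poly I:C array 1 (-0.32) it did not pass. Of the genes for the other part of GABP, Gabpb1 was higher with both ligands and Gabpb2 was lower with poly I:C. Myc was lower with poly I:C (-2.37) and PAM (-1.33), and Tfb2m, a factor for transcription of mitochondrial DNA, was lower with poly I:C (-0.75). Esrra, a nuclear receptor that acts on respiratory genes, was higher with poly I:C (0.46), as was Tfam (0.28), which packs mitochondrial DNA; Tfam did not pass after quantile normalization (0.30) or without either control array (0.24 and 0.31) or either poly I:C array (0.34 and 0.21). With PAM Tfb1m was higher (0.55).

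Other mitochondrial proteins gave 7 lower (30.4%) and 4 higher (17.4%) genes of 23 with poly I:C, again between those backgrounds. With PAM 2 were lower (8.7%) and 6 higher (26.1%). Among all genes 14% were lower and 11% higher with PAM, and among genes of high signal 25.3% and 20.6%. The ADP/ATP carrier Slc25a4 (-1.22) and the outer membrane channel Vdac1 (-0.61) were lower with poly I:C, and the import chaperone Hspa9 was higher (0.56). Genes known to act on respiration had 6 lower (37.5%) and 5 higher (31.2%) of 16 with poly I:C. With PAM 5 were lower and 5 higher (31.2% each). These shares are above those of all genes. The lower shares are near those of genes of high signal, 33.2% with poly I:C and 25.3% with PAM. The higher shares are above theirs, 21.6% with poly I:C and 20.6% with PAM. The list was picked with earlier results known, and no test was made over it. Acod1, which makes itaconate, an inhibitor of complex II, was higher by 6.60 with each ligand, and Nos2, which makes the complex IV inhibitor nitric oxide, by 4.40 and 1.14. Pdk1, a brake on pyruvate dehydrogenase, was lower with both (-1.50 and -1.12).

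Mesothelial and fibroblast markers moved with the groups as well: Upk3b (-0.40), Col1a1 (-0.36) and Col3a1 (-0.69) were lower with poly I:C, and Upk3b (-0.45) was lower and Dcn (0.95) higher with PAM. Over the 8 markers of that list the median on each array ranged from -0.04 to 0.20 in control cells, -0.10 to 0.01 with poly I:C and 0.0005 to 0.02 with PAM. The poly I:C calls of Upk3b and Col1a1 and the PAM call of Upk3b were each lost without some arrays. Of 9 B cell markers Cd22 was lower (-0.71) and Cd79b (0.36) and Ms4a1 (0.44) higher with poly I:C. With PAM Cd22 was lower (-0.83) and Cd79b (0.62), Ms4a1 (0.51) and Blk (0.27) were higher. Of 10 neutrophil markers Csf3r was higher (0.72) and Cxcr2 lower (-0.32) with poly I:C. With PAM S100a8 (2.04) and Camp (0.64) were higher and Cxcr2 lower (-0.40). Of 3 erythroid and platelet markers none passed with poly I:C in limma's test (0 at an unadjusted p under 0.05), and Ppbp was higher with PAM (0.30). The median of the B cell list on an array ranged from -0.19 to 0.02 in control cells, -0.01 to -0.0054 with poly I:C and 0.0066 to 0.11 with PAM, and that of the neutrophil list from -0.09 to 0.02, 0.01 to 0.02 and -0.03 to 0.0051. The part of these cell markers in the subunit results was not tested. With poly I:C 5 of 12 macrophage markers were lower (41.7%: Adgre1, Cd14, Gata6, Itgam and Lgals3) and 3 higher (25%: Fcgr1, Mertk and Timd4). With PAM 5 were lower (41.7%: Fcgr1, Gata6, Itgam, Lgals3 and Mertk) and 4 higher (33.3%: Adgre1, Cd14, Csf1r and Timd4). Among genes of high signal 33.2% were lower and 21.6% higher with poly I:C, and 25.3% and 20.6% with PAM. For all marker lists, the shares among all genes were 18.2% and 12.1% with poly I:C and 14% and 11% with PAM. None of 10 T and NK cell, 7 mast cell or 6 dendritic cell markers passed with either ligand in limma's test; at an unadjusted p under 0.05, 1 T and NK cell and 1 mast cell marker passed with poly I:C and 1 mast cell marker with PAM.

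For 17 of the 97 genes several probes were averaged, up to 6 for Atp5l, and no gene had probes that passed in opposite directions. Respiratory subunits have many processed pseudogenes, and such probes can match the same transcript or near-identical copies, so values for Uqcrb, Uqcr11, Atp5g1, Atp5g2, Atp5h, Atp5l and Atp5md, among others with several probes, are less certain as to source.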

How the data were processed

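Total RNA of the cells was made into biotinylated cRNA and hybridised to an Affymetrix array, per the labels' protocols. The table deposited by the authors holds 28815 probes on 6 arrays as log2 values (taken as such) with each probe's median subtracted; the log base, and how probes were summarized and normalized, are not given in the sources used. Array medians lay between -0.0049 and 0.0072, and no column was left out. Symbols came from the platform annotation: 21780 probes had 1 symbol, 1605 several and 5430 none, and only the first kind was used, averaged per gene. All 122 probes of the 97 genes matched a current gene table. The high signal class rests on differences between arrays being multiples of a single-precision step, which chance can also give.

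A mean per group was fitted over all 6 arrays with limma 3.58.1 (lmFit, eBayes; 3 residual and 5.68 prior degrees of freedom) in R 4.3.3, and p-values were adjusted by Benjamini-Hochberg over 19935 genes. Tables and figures used Python 3.11.15, numpy 2.4.6, pandas 2.3.3 and matplotlib 3.10.9. The fit was tested on simulated data.

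Genes named were, per complex or set and comparison, up to 3 increases and 3 decreases past the threshold, core subunits, isoform pairs, c-ring and complex II genes, and up to 3 per direction of each pathway list; others named were chosen after their values were seen. Members and lists were chosen with earlier results of these data known. Same-numbered replicates did not pair (correlations of their deviations -0.073, 0.155 and -0.01).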

Additional observations from a re-analysis of the deposited data

How the results depend on the processing

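No result changed direction past the threshold under any alternative, and with 2 arrays a group the calls depended most on single arrays. Each gene was followed through the alternatives in which it was fitted. For genes outside the high signal class these leave out the fit with only genes of that class. Taking the median of probes was examined for counts and set medians only. Over the 97 genes and 3 comparisons 104 differences passed, and 50 of them passed under every alternative; the other 54 were lost when some array was left out. Without 1 array at a time, the genes lower with poly I:C ranged from 15 to 33 (35 with all arrays) and those higher from 5 to 9 (10). With PAM 2 to 6 were lower (6) and 7 to 18 higher (16), and with poly I:C against PAM 1 to 5 were higher (4). Set medians with an array left out ranged, with poly I:C, from -0.1927 to -0.1268 in complex I, -0.0959 to -0.0147 in complex III and -0.301 to -0.1953 in complex V. With PAM they ranged from -0.2043 to -0.1485 in complex II, 0.0235 to 0.1085 in complex IV and 0.0047 to 0.0754 in complex V. Between the ligands the ranges were -0.0075 to 0.0394 in complex II and -0.0127 to 0.0881 in the assembly factors, medians near 0 whose sign changed, -0.2454 to -0.1992 in complex III and -0.2486 to -0.1747 in complex V. Quantile normalization gave -0.1783 in complex V with poly I:C. With only genes of high signal, fewer genes are tested: 7 were higher in poly I:C than in PAM cells, and the medians were -0.0029, 0.1092 and -0.1075 in complex III and 0.3058, 0.1162 and 0.2324 in the assembly factors (poly I:C, PAM, and poly I:C against PAM). The replicate number as a block, which does not pair the samples, gave 32 lower and 9 higher genes with poly I:C, 5 and 15 with PAM, and 33 and 4 between the ligands. Using only probes of high signal was chosen after seeing the data and changed no call.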

Other observations

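Several subunits were represented by probes that carry more than 1 gene symbol and were kept out of all counts. The 2 probes shared by Ndufb4 and Ndufb4b, a membrane-arm subunit of complex I and its copy, were lower with poly I:C (-0.35 and -0.38 on the log2 scale, limma adjusted p = 0.0121 and 0.00474). The same probes were higher with PAM (0.33 and 0.31, adjusted p = 0.0201 and 0.0167). Between poly I:C and PAM they differed by -0.68 and -0.69. The probe shared by Ndufs5 and Ndufs5-ps was higher with PAM (0.33, adjusted p = 0.0251) and differed by -0.44 between the ligands. The probe of Cox16, a complex IV assembly factor, shared with Gm20498, was lower with poly I:C (-0.29, adjusted p = 0.0253). The 3 probes of Cox7c, a complex IV subunit, shared with Gm12338, did not pass in any comparison (0.05 to 0.07 with poly I:C, 0.20 to 0.21 with PAM).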
